A study of Mus musculus with 31 samples.

Results

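The genes described here are 9 members of a pair of signalling pathways of skin placodes, taken from the array annotation by symbol: *Eda*, *Edar*, *Edaradd*, *Eda2r* and *Tnfrsf19* of the ectodysplasin pathway and its receptor family, and *Shh*, *Ptch1*, *Gli1* and *Gli2* of the hedgehog pathway. They were measured by 24 of the 45037 probe sets, which stand for 9 of the 18193 genes with a probe set of their own symbol. RNA was profiled on Affymetrix mouse arrays in mammary tissue of K5ΔNβcat mice, dissected as small hyperplasias (n = 5), large hyperplasias (n = 5) or tumors (n = 11), and of control mice (n = 4). K5ΔNβcat is a transgene in which the keratin 5 promoter drives an N-terminally truncated, stabilized β-catenin, which the paper places in the basal cells of the gland. Whether other cells carried the activated protein was not measured on these arrays. Apart from these, basal cells were sorted from the glands of control mice (n = 3) and of K5creMycL/L mice (n = 3), in which Cre under the same promoter deletes floxed *Myc*, and each of these samples was a pool of several animals. The labels give the strain of all groups as C57BL6, whereas the methods describe a mixed background with 129SV, and no age is given for the arrays. Whether each tissue sample was a different animal is not stated in the labels, and the p-values therefore cover only how these samples varied, which may in part be technical. In whole tissue, a higher share of a cell type and more RNA per cell cannot be told apart.

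Hair follicles and mammary buds both begin as placodes, local thickenings of ectoderm. In placodes the ligand ectodysplasin (*Eda*) binds its receptor Edar, the adaptor Edaradd passes the signal to NF-κB, and the sonic hedgehog gene *Shh* is among the genes switched on downstream of Wnt/β-catenin and Edar. Hedgehog ligand releases the inhibition of Smoothened by the receptor Patched 1 (*Ptch1*), the transcription factors Gli2 and Gli1 then act, and *Ptch1* and *Gli1* are themselves standard target genes of the pathway. Eda2r is the receptor of a second ectodysplasin isoform, and Tnfrsf19 (also called Troy) is a related receptor of skin and its appendages.

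Promoter windows from RefSeq on the build GRCm38.p6, which run from 250 bases before to 50 after a gene's start, were matched to 7 of the 9 genes (8 windows, as *Tnfrsf19* has more than 1). Both strands were searched for CTTTGAA and CTTTGAT, forms of the site bound by the Tcf and Lef partners of β-catenin, which share their first letters, and for GACCACCCA, a site of Gli proteins. CTTTGAT lies in 2 of the 8 windows and in 3.73% of all 32851 windows, CTTTGAA in none of the 8 and in 5.14% of all, and GACCACCCA in none of the 8 and in 0.253% of all. The windows with a match are shown because both belong to receptor genes that were higher in the hyperplasias. The sequence is given 5′ to 3′ on the gene's strand with the match in capitals, which in *Tnfrsf19* reads ATCAAAG because the site lies on the opposite strand. The *Edar* window is chr10:58675647-58675946 (minus strand) and the *Tnfrsf19* window is chr14:61037938-61038237 (minus strand). A match is a description of these letters and not evidence of binding.
Edar: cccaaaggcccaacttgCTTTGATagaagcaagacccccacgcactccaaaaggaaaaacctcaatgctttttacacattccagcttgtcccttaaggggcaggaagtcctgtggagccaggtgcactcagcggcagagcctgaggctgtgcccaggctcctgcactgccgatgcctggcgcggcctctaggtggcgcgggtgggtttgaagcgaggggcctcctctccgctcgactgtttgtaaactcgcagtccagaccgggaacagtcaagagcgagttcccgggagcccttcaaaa
Tnfrsf19: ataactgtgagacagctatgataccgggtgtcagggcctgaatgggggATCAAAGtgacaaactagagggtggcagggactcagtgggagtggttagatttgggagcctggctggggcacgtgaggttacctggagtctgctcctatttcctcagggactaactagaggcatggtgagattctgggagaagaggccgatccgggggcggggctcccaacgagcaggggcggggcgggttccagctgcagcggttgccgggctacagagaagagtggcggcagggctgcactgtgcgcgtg

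The values are MAS5 signals, linear intensities scaled so that each array has a trimmed mean of 100, and a probe set was tested in a comparison where the higher group median reached 30, the background used in the study's methods. Array medians were 23.9 to 32.9 in tissue and 13.2 to 19.7 in sorted cells. Among the tumors, the arrays of tumors 1, 2 and 3 had medians of 29.1, 29.6 and 29.6, and the other tumors 23.9 to 26.7. Differences are given on the scale of log2(signal + 16), which understates the change of dim genes, with adjusted p from limma over all probe sets tested. Where every array of a group lay under 30, the fold is a lower bound against 30. Of 8 basal epithelium markers analysed, such as *Krt5*, *Krt14* and *Trp63*, all 8 were higher than in control tissue in each lesion group, and their summed signal rose from 781 to 1094 on the control arrays, through 4746 to 6625 (small) and 6090 to 10692 (large), to 9880 to 16739 among tumors. Of all probe sets tested, 16.8% were called higher in small hyperplasias, 25.6% in large ones and 33.2% in tumors. Of 9 smooth muscle and myoepithelium markers, by contrast, 5 were lower in small hyperplasias, 8 in large ones and 8 in tumors (median −1.84), where 14.4%, 20.1% and 35.9% of all probe sets were called lower.

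Transcripts of the hedgehog ligand and its target genes rose in both kinds of hyperplasia, were highest in large hyperplasias, and were much lower in tumors. *Shh* was 51.8, 21.5, 22.5 and 26.9 on the 4 control tissue arrays. It was 137, 172, 88.6, 151 and 94.9 in the 5 small hyperplasias, and 383, 457, 335, 332 and 313 in the 5 large ones. In tumors it ranged from 13.8 to 218 with a median of 47.0. Every small hyperplasia thus lay above every control array and every large hyperplasia above every small one, while the tumors overlapped with the control and small groups and lay under all large hyperplasias. Against the control mean, *Shh* was 4.19-fold higher in small and 11.9-fold higher in large hyperplasias, with log2 differences of 1.64 ± 0.38 (SE, adjusted p = 0.0019) and 3.06 ± 0.38 (adjusted p = 4.9e-07). In the order of levels, large exceeded small hyperplasias by 1.42 ± 0.36 (adjusted p = 0.014) and small hyperplasias exceeded tumors (log2 difference of tumors −1.20 ± 0.31, adjusted p = 0.0019), whereas tumors and control tissue differed by 0.44 ± 0.33 (adjusted p = 0.24, not called). *Shh* fell by 2.62 ± 0.31 from large hyperplasias to tumors (adjusted p = 1.9e-07). The second *Shh* probe set stayed under 30 on every array, so these values rest on 1 probe set.

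*Ptch1*, the hedgehog receptor and target, was already well above background in control tissue, at 293, 230, 276 and 280. It was 964, 1527, 755, 900 and 815 in small hyperplasias and 2235, 2182, 1994, 1514 and 1755 in large hyperplasias. In tumors it ran from 131 to 1203 with a median of 383. Both hyperplasia groups lay wholly above control tissue, the lowest large hyperplasia lay just under the highest small one, and all tumors lay under all large hyperplasias. The log2 difference from control tissue was 1.78 ± 0.43 in small (3.68-fold, adjusted p = 0.003) and 2.76 ± 0.43 in large hyperplasias (7.18-fold, adjusted p = 1.3e-05), and large and small hyperplasias differed by 0.98 ± 0.41 (adjusted p = 0.13, not called). *Ptch1* fell by 2.51 ± 0.35 from large hyperplasias to tumors (adjusted p = 2.3e-06), and tumors and control tissue differed by 0.25 ± 0.38 (adjusted p = 0.57, not called). The other *Ptch1* probe sets correlated with this one over the 25 tissue arrays at r = 0.958 and 0.853, and both also rose in large hyperplasias. Both were called higher in large than in small hyperplasias (adjusted p = 0.044 and 0.032).

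*Gli1*, the hedgehog-induced transcription factor, was under 30 on all control tissue arrays (22.3, 14.0, 1.27 and 17.6). It was 52.9, 96.1, 61.1, 72.4 and 82.2 in small hyperplasias and 179, 209, 144, 119 and 105 in large ones. The tumors ranged from 6.57 to 63.1 with a median of 26.7, and 4 of 11 reached 30. The 3 non-tumor groups did not overlap, and *Gli1* was at least 2.38-fold higher in small (adjusted p = 0.00014) and at least 4.89-fold in large hyperplasias (adjusted p = 1.4e-07), both against control tissue. It fell by 1.99 ± 0.23 from large hyperplasias to tumors (adjusted p = 1.6e-07). Tumors and control tissue were not compared because both medians lay under 30.

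*Gli2*, the transcription factor that first responds to hedgehog ligand, was 37.4, 40.3, 40.4 and 34.8 in control tissue. It was 141, 177, 133, 162 and 129 in small and 245, 308, 245, 169 and 200 in large hyperplasias. In tumors it was 40.1 to 149 with a median of 80.0. Unlike *Shh* and *Ptch1*, *Gli2* in tumors was called above control tissue, by 0.88 ± 0.21 (2.33-fold, adjusted p = 0.00051), although the lowest tumor lay within the control range; its fall from large hyperplasias was 1.30 ± 0.19 (adjusted p = 4.5e-06). Whether the tumor difference of *Gli2* itself exceeded that of *Shh* or *Ptch1* was not tested. A second *Gli2* probe set correlated with it at r = 0.86 over the tissue arrays and was 32.7 ± 11.2 in tumors and 33.8 ± 15.9 in control tissue (SD, n = 11 and n = 4), where it was not tested because both medians lay under 30.

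**Figure D1:**
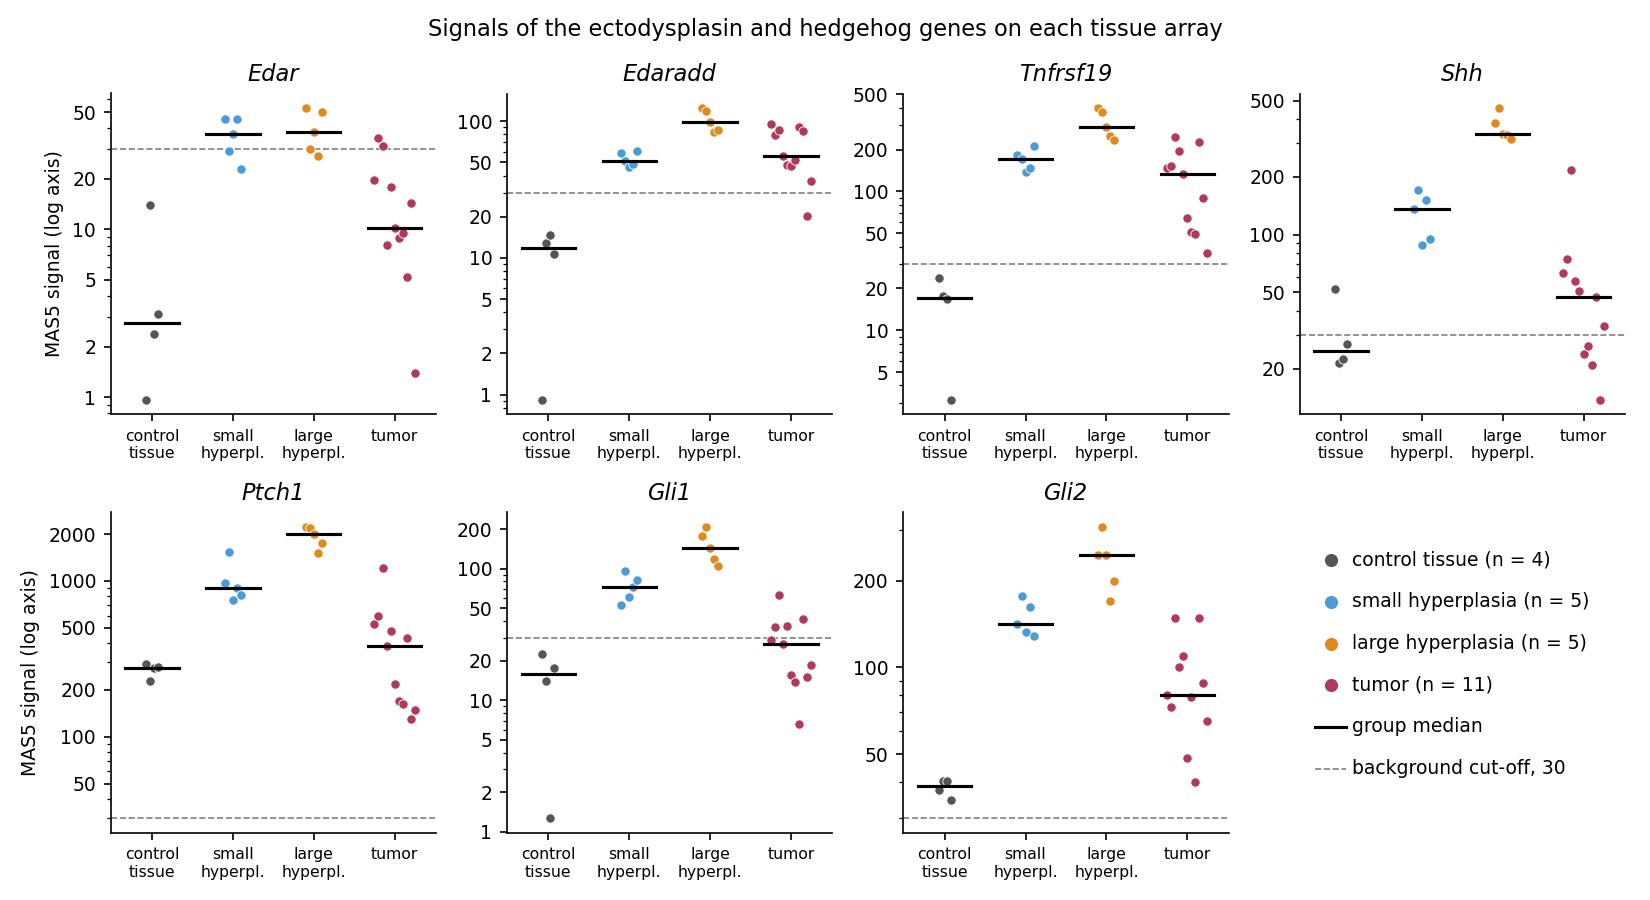
MAS5 signal on a log axis for *Edar*, *Edaradd*, *Tnfrsf19*, *Shh*, *Ptch1*, *Gli1* and *Gli2* on each tissue array; each point is 1 array, black bars are group medians and the dashed line is the background of 30. All large hyperplasias lie above all control arrays for the 7 genes, as for 12.2% of all 45037 probe sets, tested or not. For *Shh*, *Ptch1*, *Gli1* and *Gli2* all tumors lie under all large hyperplasias, and the share of all probe sets that do so was not counted.

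On the ectodysplasin side, *Edaradd*, *Edar* and *Tnfrsf19* rose in both kinds of hyperplasia, while *Eda* and *Eda2r* were not tested because all their group medians lay under 30. The 5 *Eda* probe sets, for the ligand, were under 30 on every one of the 31 arrays, with a highest group median of 16.8. *Edar*, its receptor, was 0.966, 14.1, 2.39 and 3.15 in control tissue. It was 45.8, 29.1, 37.0, 45.7 and 23.0 in small and 52.8, 29.997, 38.2, 27.4 and 49.8 in large hyperplasias. The tumors ranged from 1.40 to 35.0 with a median of 10.2, and 2 of 11 reached 30. The hyperplasias lay above control tissue without overlap but close to the background, so the bounds are small, at least 1.16-fold in small (adjusted p = 0.00036) and at least 1.28-fold in large hyperplasias (adjusted p = 7.3e-05). The call in small hyperplasias was lost with signals floored at 30 (adjusted p = 0.11). Large and small hyperplasias did not differ beyond their spread (0.09 ± 0.24, adjusted p = 0.84), and *Edar* fell by 0.90 ± 0.21 from large hyperplasias to tumors (adjusted p = 0.00073). Tumors were not compared with control tissue, as both medians were under 30. A second *Edar* probe set was under 30 on every array.

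*Edaradd*, the adaptor of Edar, had its tumors level with small hyperplasias. It was 0.917, 12.8, 14.8 and 10.6 in control tissue. It was 58.5, 51.3, 46.6, 48.7 and 60.5 in small hyperplasias and 125, 118, 99.2, 83.1 and 86.5 in large ones. The tumors ranged from 20.3 to 95.1 with a median of 55.7, and the lowest of them lay above every control array. *Edaradd* was at least 1.76-fold higher in small hyperplasias (adjusted p = 0.00011), at least 3.36-fold in large hyperplasias (adjusted p = 1.2e-07) and at least 1.93-fold in tumors (adjusted p = 6.1e-07) than in control tissue. Tumors and small hyperplasias differed by 0.13 ± 0.20 (adjusted p = 0.62, not called). The fall from large hyperplasias to tumors, 0.64 ± 0.20 (adjusted p = 0.0098), was not called without the offset of 16 (adjusted p = 0.13), by another probe set (adjusted p = 0.099) or with the replicate number as a block (adjusted p = 0.06).

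*Tnfrsf19*, the receptor also known as Troy, showed by its brightest probe set the largest log2 differences from control tissue among the genes tested, 7 in each kind of hyperplasia and 5 in tumors. It was 23.8, 17.5, 16.8 and 3.16 in control tissue. It was 182, 172, 138, 147 and 211 in small and 398, 372, 292, 250 and 233 in large hyperplasias. The tumors ran from 36.2 to 244 with a median of 133, all above all control arrays. *Tnfrsf19* was at least 5.60-fold higher in small hyperplasias (adjusted p = 1.5e-05), at least 10.1-fold in large hyperplasias (adjusted p = 1.1e-07) and at least 3.50-fold in tumors (adjusted p = 7.1e-06). The next brightest probe set gave smaller differences from control tissue. They were 0.86 in small hyperplasias (adjusted p = 0.028), 1.73 in large hyperplasias (adjusted p = 3.7e-05) and 0.92 in tumors (adjusted p = 0.0025). With that probe set *Tnfrsf19* did not rank highest in any lesion group, and its tumors overlapped with control tissue. The remaining probe set, tested against control tissue only in large hyperplasias, gave 1.11 (adjusted p = 0.001). By its brightest probe set, *Tnfrsf19* fell by 1.36 ± 0.31 from large hyperplasias to tumors (adjusted p = 0.00064). Large against small hyperplasias (0.79 ± 0.36, adjusted p = 0.17) was not called, although every large one lay above every small one. That difference was called with only those groups fitted (adjusted p = 0.0075) and by the second probe set (0.87, adjusted p = 0.047). Small hyperplasias and tumors did not differ by a call (adjusted p = 0.12). *Eda2r*, the receptor of the other ectodysplasin isoform, had tissue group medians under 30 throughout. Its control arrays read 6.52 to 14.6, the small hyperplasias 8.93 to 14.7, the large ones 14.6 to 16.7 and the tumors 21.4 to 41.8. Every tumor lay above every control array, as for 11.1% of all 45037 probe sets, tested or not, but only 1 of 11 tumors reached 30.

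**Figure D2:**
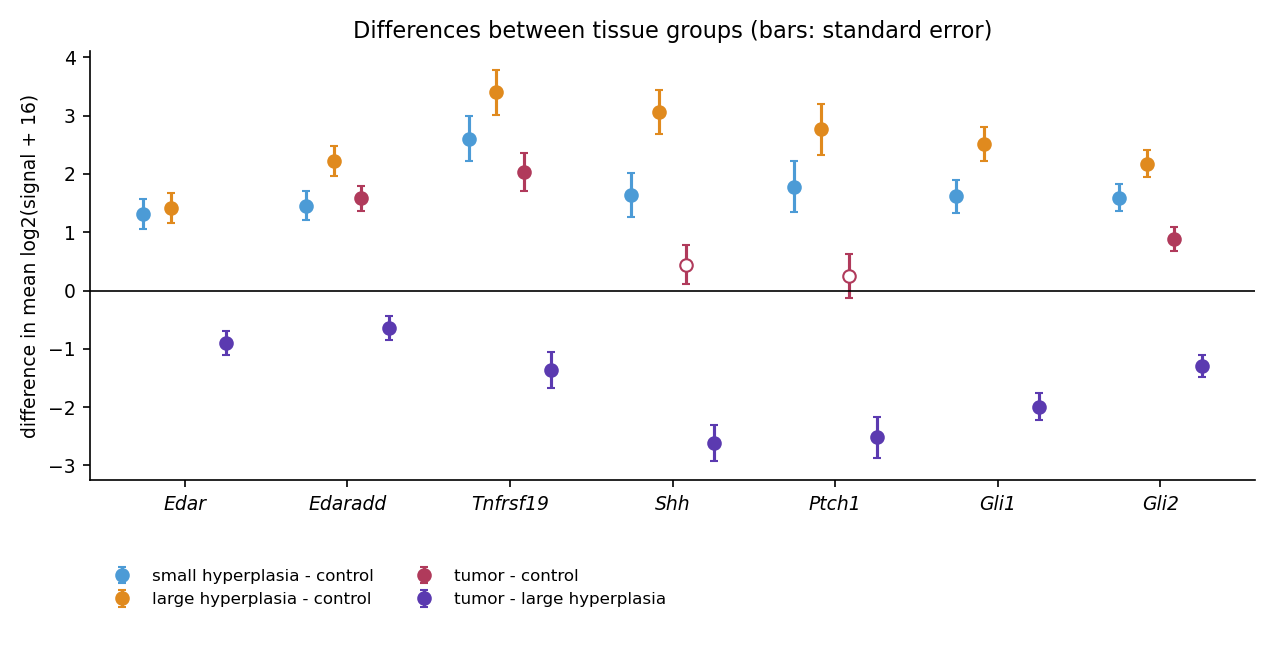
Difference in mean log2(signal + 16) with its standard error for 4 comparisons of tissue groups; filled points have adjusted p under 0.05, and genes with both group medians under 30 are left out. *Shh* and *Ptch1* have open points near 0 for tumors against control tissue (0.44 and 0.25) and the lowest points for tumors against large hyperplasias (−2.62 and −2.51).

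Against control tissue, 7 of the 7 genes tested were called higher in large hyperplasias, with a median log2 difference of 2.51. The genes here and the lists below were chosen with earlier results of these data known. Their counts beside the shares over all probe sets are therefore only a description. The control medians of *Edar*, *Edaradd*, *Tnfrsf19*, *Shh* and *Gli1* lay under 30. These genes could be tested against control tissue only where the lesion median reached 30. The direction of their calls was therefore largely set in advance, in each lesion group. Of all 24001 probe sets tested 45.7% were called, 25.6% higher and 20.1% lower, and their median difference was 0.06. All 7 genes had every large hyperplasia above every control array, as did 12.2% of all 45037 probe sets. These include the many that were not tested, and the share among tested probe sets was not counted. The share over all probe sets was not counted for small hyperplasias above control tissue, for large above small hyperplasias or for tumors under large hyperplasias. The lack of overlap given for those groups is therefore only a description. All 15 of the tested probe sets of these genes were higher, but only the brightest ones of *Ptch1* and *Gli2* had a control median of at least 30. The others were tested only because large hyperplasias reached 30, so their shared direction is not separate support. In small hyperplasias the 7 genes tested were again all higher, with a median of 1.62, where 31.2% of all probe sets were called, 16.8% higher, and the median over all was −0.000396. In tumors 5 genes were tested against control tissue, of which *Edaradd*, *Tnfrsf19* and *Gli2* were higher and *Shh* and *Ptch1* were not called; the median was 0.88, beside −0.03 over all probe sets, 69.1% of which were called, 33.2% higher. These 3 comparisons share the control arrays. From large hyperplasias to tumors all 7 genes tested fell, with a median of −1.36, where 53.9% of all probe sets were called, 32.9% lower, and the median over all was −0.09. *Edar* and *Gli1* had tumor medians under 30 and could be tested there only through the large hyperplasias. Large exceeded small hyperplasias for 3 of 7 genes, *Shh*, *Edaradd* and *Gli1*, where 9.63% of all probe sets were called, 5.01% higher and 4.62% lower. This count rests on few arrays and moved both ways with the setting. It was 1 without large hyperplasia 1, 2 or 3 or small hyperplasia 1, 3 or 4, with *Shh* alone called, and 0 without the offset. It was 6 with only those groups fitted and 6 with any probe set of a gene counted. Against small hyperplasias, tumors were lower for 5 of 7 genes, *Edar*, *Shh*, *Ptch1*, *Gli1* and *Gli2*, where 54% of all probe sets were called, 29.6% lower.

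The tumors differed widely among themselves, and the hedgehog genes did so together. Tumor 3 had the highest *Shh* (218), *Ptch1* (1203), *Gli1* (63.1) and *Tnfrsf19* (244), and for *Shh* this was 4.64 times the median tumor. Its *Shh* and *Ptch1* lay above the median of the small hyperplasias, whereas 4 of the 11 tumors had *Shh* under 30. Over the 11 tumors, log2(signal + 16) of *Shh* correlated with *Ptch1* at r = 0.941 (Spearman's rho 0.909, and r = 0.914 without the 2 tumors farthest on *Shh*) and with *Gli1* at r = 0.881 (rho 0.809, r = 0.856). *Edar*, the receptor gene, with *Shh* gave r = 0.618, which was 0.134 without tumors 2 and 3. Over the 21 pairs of the 7 genes r ran from 0.113 to 0.941, and these are descriptions, since the values of a tumor share its array and its cell make-up. The tumors with high hedgehog genes also had high array medians: over the 11 tumors the array median correlated with *Shh* at r = 0.794, *Edar* at 0.801 and *Ptch1* at 0.761, and with *Gli2* at 0.21, and its part in these values was not tested. With tumors 1, 2 and 3 left out together, the same counts of 3 higher genes against control tissue and 7 lower genes against large hyperplasias were found, and the difference of *Ptch1* from control tissue was −0.17 (adjusted p = 0.59).

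**Figure D3:**
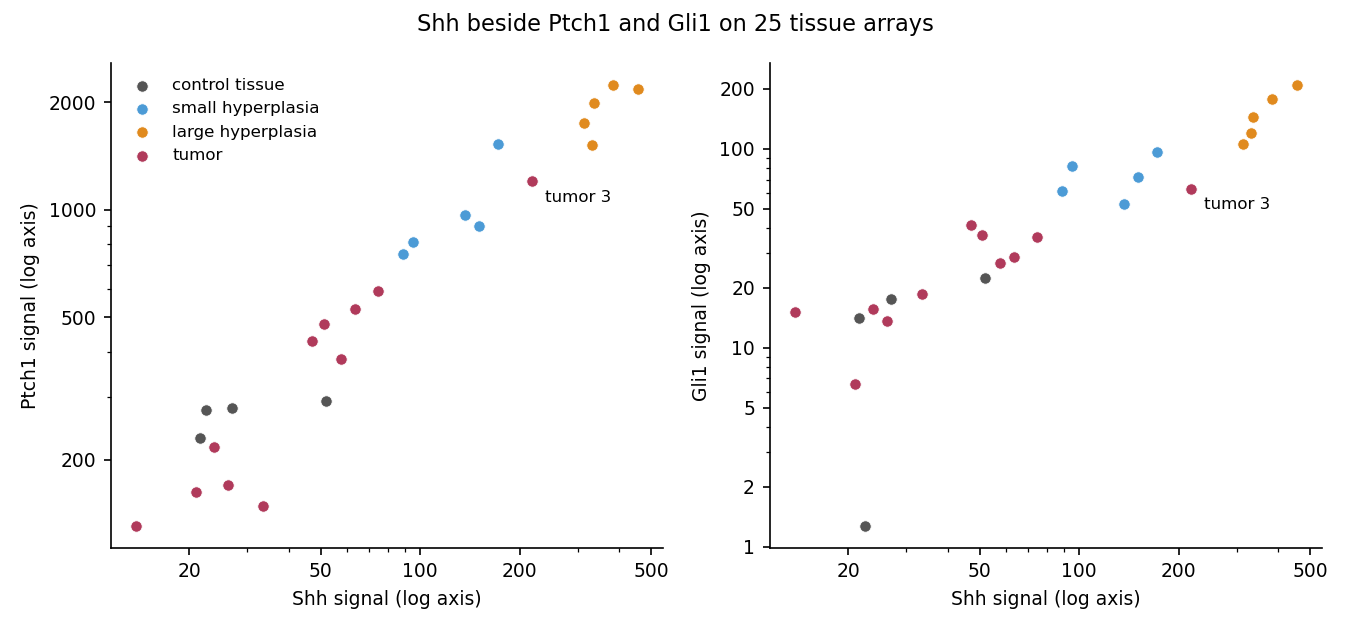
*Ptch1* (left) and *Gli1* (right) signal against *Shh* signal on the 25 tissue arrays, all on log axes; each point is 1 array, coloured by group. The 5 large hyperplasias hold the upper right corner, and tumor 3 (*Shh* 218, *Ptch1* 1203, *Gli1* 63.1) lies between the small and the large hyperplasias on the *Shh* axis.

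The genes whose pattern over the 25 tissue arrays was most like that of the hedgehog members were largely those members and *Lhx2*, a LIM homeobox gene of hair follicle stem cells, among the 8569 or 8570 genes compared. *Lhx2* had r = 0.972 with *Shh*, 0.957 with *Ptch1* and 0.94 with *Gli1*, and 0.953 with *Shh* within the 11 tumors. *Shh* had r = 0.969 with *Ptch1* and 0.952 with *Gli1*. The third for *Ptch1* was *Lgr6*, a receptor gene that marks epidermal stem cells (r = 0.945), and *Gli2* was most like *Gli1* (0.924), *Flrt3* (0.913) and *Tnfrsf19* (0.912). *Tnfrsf19* was most like *Krt79*, a keratin of the hair canal and sebaceous duct (0.938), the hyaluronan synthase gene *Has3* (0.936) and the transglutaminase gene *Tgm5* (0.921). *Edar* was most like *Masp1* (0.891), *Krt71*, a keratin of the inner root sheath (0.889), and *Lrrc45* (0.874). *Edaradd* was most like *Lmo1* (0.929), *Cadm1* (0.921) and *Smarcd2* (0.917). These correlations carry the group differences and the cell make-up of each array.

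Markers of hair follicles and sebaceous glands, and some of other tissues, moved with these genes. Of 11 such markers listed, 9 were analysed, 8 of 8 tested were higher in large hyperplasias, with a median log2 difference of 4.81, 7 of 7 in small hyperplasias (3.90) and 6 of 6 in tumors (1.92), and 6 of 8 were lower in tumors than in large hyperplasias (−2.56). Of the 9, 0 had a control median of at least 30. Each could be tested against control tissue only where the lesion median reached 30, so the direction of these calls was largely set in advance. Over all probe sets 25.6%, 16.8% and 33.2% were called higher in these comparisons with control tissue, and 32.9% lower in tumors than in large hyperplasias. Their summed signal was 48.6 to 148 in control tissue, where *Krt71*, *Krt35*, *Tchh*, *Krt75*, *Hoxc13* and *Foxn1* were under 30 on every array. The small hyperplasias summed to 3064 to 4108, the large ones to 4141 to 10402 and the tumors to 395 to 6802, with tumor 3 the highest of these. Over the 11 tumors the log2 sum correlated with *Shh* at r = 0.785, with *Ptch1* at 0.845 and with *Gli1* at 0.754, whereas the sum of the basal markers gave −0.0438 with *Shh*, 0.0727 with *Ptch1* and 0.334 with *Gli1*. Adipocyte markers (8 of 11 lower in large hyperplasias, 11 of 11 in tumors, where 20.1% and 35.9% of all probe sets were lower) gave r = 0.565 with *Shh*, 0.751 with *Ptch1* and 0.769 with *Gli1* over the tumors. Schwann cell markers, of which 4 of 5 were lower in tumors than in large hyperplasias, gave r = 0.65 with *Shh*, 0.507 with *Ptch1* and 0.399 with *Gli1*, and tumor 3 had the highest sum of them (1046). Tumor 3 also had the highest skeletal muscle sum (3650, beside a tumor median of 381), although that sum gave r = 0.239 with *Shh* and −0.00734 with *Ptch1*. Of 6 lymphocyte markers, 3 had a control median of at least 30. All 6 rose in large hyperplasias against control tissue and 5 were lower in tumors than in large hyperplasias, but their sum gave r = −0.253 with *Shh* over the tumors. Among 13 fibroblast markers, large hyperplasias had 3 higher and 1 lower, and their sum gave r = −0.434 with *Shh* over the tumors. The part of any of these cell types in the values above was not tested.

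**Figure D4:**
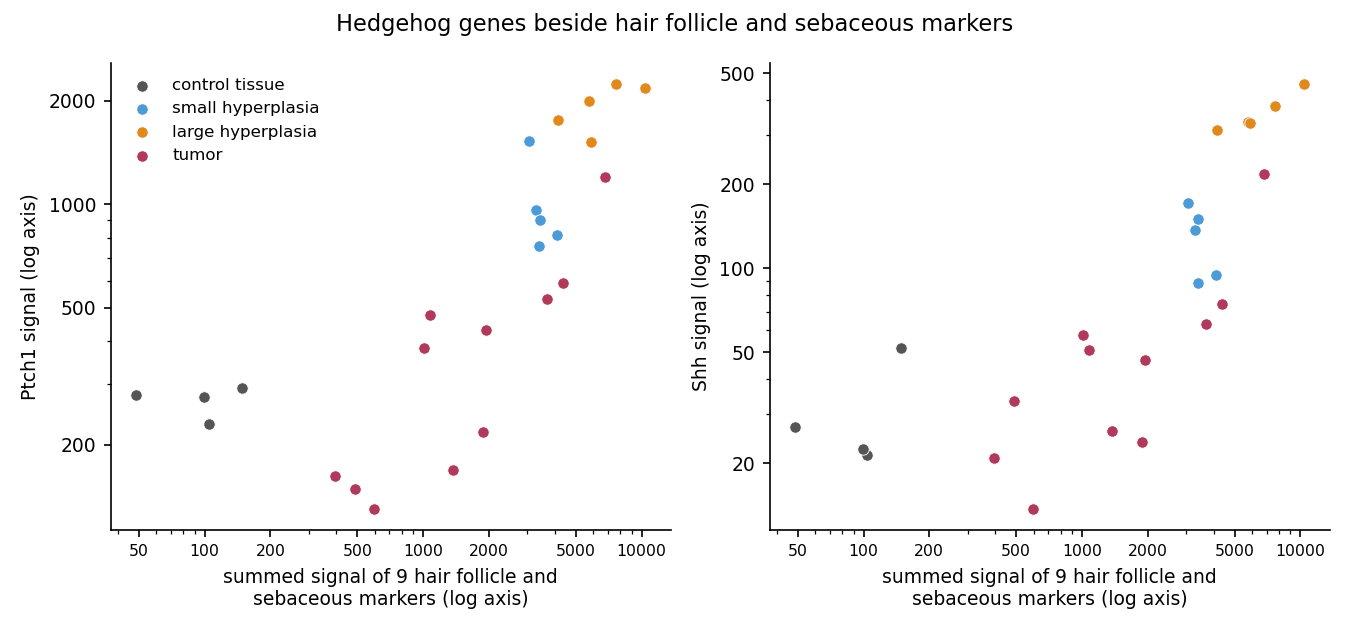
*Ptch1* (left) and *Shh* (right) signal against the summed signal of 9 hair follicle and sebaceous markers on the 25 tissue arrays, all on log axes. Control arrays have sums of 48.6 to 148, the hyperplasias 3064 to 10402, and the tumors spread from 395 to 6802.

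Of the other hedgehog pathway genes, 21 of 22 listed were analysed, and 7 of 16 tested were higher and none lower in large hyperplasias (median 0.24), while in tumors 5 were higher and 6 lower (median −0.08). The shares called are close to the 45.7% and 69.1% called over all probe sets. Of the 21 genes, 15 had a control median of at least 30, and the others could be tested against control tissue only through the lesions. *Hhip*, the hedgehog-binding inhibitor that is itself a target gene, had the largest rise in large hyperplasias: it was 72.3 ± 3.58 in large hyperplasias and 21.1 ± 13.1 in control tissue (SD, n = 5 and n = 4), a difference of 1.33 ± 0.25 (adjusted p = 9e-05), and at least 2.41-fold lower in tumors than in large hyperplasias (adjusted p = 5.8e-09). Its control median and all its tumor arrays lay under 30, so the direction of both calls was largely set in advance. *Gli3*, the mainly repressive Gli factor, rose by 0.70 ± 0.13 in large hyperplasias (adjusted p = 9.5e-05) and by 0.57 ± 0.11 in tumors (adjusted p = 7.6e-05). *Smo*, for Smoothened, was 349 ± 31.5 in large hyperplasias, 239 ± 35.9 in control tissue and 246 ± 31.8 in tumors, a rise of 0.52 ± 0.12 in large hyperplasias (adjusted p = 0.001) and a difference of 0.04 ± 0.11 in tumors (adjusted p = 0.76, not called, with 1 other probe set lower). The largest rises in tumors were those of *Scube2*, which aids release of the ligand (at least 1.85-fold, adjusted p = 3.2e-06), and *Csnk1a1*, a kinase that acts on Gli proteins and β-catenin (0.99 ± 0.08, adjusted p = 5.9e-11). *Scube2* was under 30 on every control tissue array and could be tested only through the tumors. The largest falls were those of the co-receptor gene *Cdon* (−0.90 ± 0.34, adjusted p = 0.023) and of *Kif7*, a kinesin that regulates Gli proteins in the cilium (−0.69 ± 0.14, adjusted p = 0.00016). Of the other ligand genes, *Ihh* was under 30 on all arrays, and *Dhh* reached 30 on 1 control tissue array (33.9) and in 2 of the 3 control basal cell pools.

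Of the ectodysplasin and NF-κB pathway genes, 15 of 18 listed were analysed and tested, and in large hyperplasias 7 were higher and 1 lower (median 0.27), and in tumors 5 higher and 2 lower (median 0.17), where 45.7% and 69.1% of all probe sets were called. *Nfkbie*, the gene of an NF-κB inhibitor that NF-κB itself induces, had the largest rise in both, 1.85 ± 0.24 in large hyperplasias (155 ± 15.0 against 32.1 ± 9.81, SD, adjusted p = 8.5e-07) and 2.19 ± 0.21 in tumors (adjusted p = 9.5e-10). *Traf1*, an NF-κB-induced adaptor gene, rose by 1.21 ± 0.23 in large hyperplasias (adjusted p = 0.00015) and fell by 1.13 ± 0.19 from there to tumors (adjusted p = 2.1e-05). *Tab2*, for a subunit of the kinase complex that Edaradd recruits, rose by 0.54 ± 0.07 in tumors (adjusted p = 5.8e-07). *Rela*, for the NF-κB subunit p65, fell by 0.40 ± 0.10 in large hyperplasias (adjusted p = 0.0013) and by 0.66 ± 0.08 in tumors (adjusted p = 1.2e-07), and *Ikbkg*, for the regulatory subunit of the IκB kinase, fell by 0.33 ± 0.10 in tumors (adjusted p = 0.0045), where another of its 6 probe sets was higher. *Traf6*, the ligase downstream of Edaradd, and *Nfkbia*, the main IκB gene, were not called in either comparison (differences of 0.01 and −0.21 in large hyperplasias, adjusted p = 0.96 and 0.37), though of the 5 *Nfkbia* probe sets 1 was higher in large hyperplasias and 2 in tumors.

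Of the other placode genes, 19 of 21 listed were analysed, and 11 of 15 tested were higher in large hyperplasias (median 1.22) and 8 of 14 in tumors (median 0.72), with none lower in either. Over all probe sets 25.6% were higher in large hyperplasias (45.7% called) and 33.2% in tumors (69.1% called). Of the 19 genes, 12 had a control median of at least 30, and the others could be tested against control tissue only through the lesions. *Lhx2* was 234 ± 92.0 in large hyperplasias, at least 7.33-fold higher than in control tissue (adjusted p = 4.2e-06), and fell by 3.05 ± 0.39 to tumors (adjusted p = 7.7e-07). *Sostdc1*, for a Bmp and Wnt antagonist of placodes, rose by 3.32 ± 0.56 in large hyperplasias (adjusted p = 3.3e-05). *Lef1*, a β-catenin partner of placodes, was 82.2 ± 17.5 in large hyperplasias, at least 2.69-fold above control tissue (adjusted p = 3.1e-05), and 21.7 ± 15.7 in tumors, a fall of 1.45 ± 0.22 (adjusted p = 8.8e-06). *Lhx2* had a tumor median under 30, so its fall could be tested only through the large hyperplasias. The same may hold for *Lef1*, whose tumor mean was under 30. The 2 largest rises in tumors were of secreted inhibitors. Tumor *Dkk1*, for a Wnt antagonist, exceeded control tissue (adjusted p = 5e-07) and large hyperplasias (adjusted p = 6.1e-06) by at least 5.94-fold each. *Dkk1* was under 30 on every control and large hyperplasia array. Both comparisons could thus be tested only through the tumors, and their direction was largely set in advance. *Fst*, for an activin and Bmp antagonist, rose by 2.19 ± 0.28 in tumors against control tissue (adjusted p = 2.1e-07) and by 1.30 ± 0.26 against large hyperplasias (adjusted p = 2e-04). *Dkk4*, a direct target of ectodysplasin signalling in placodes, was under 30 on every array.

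**Figure D5:**
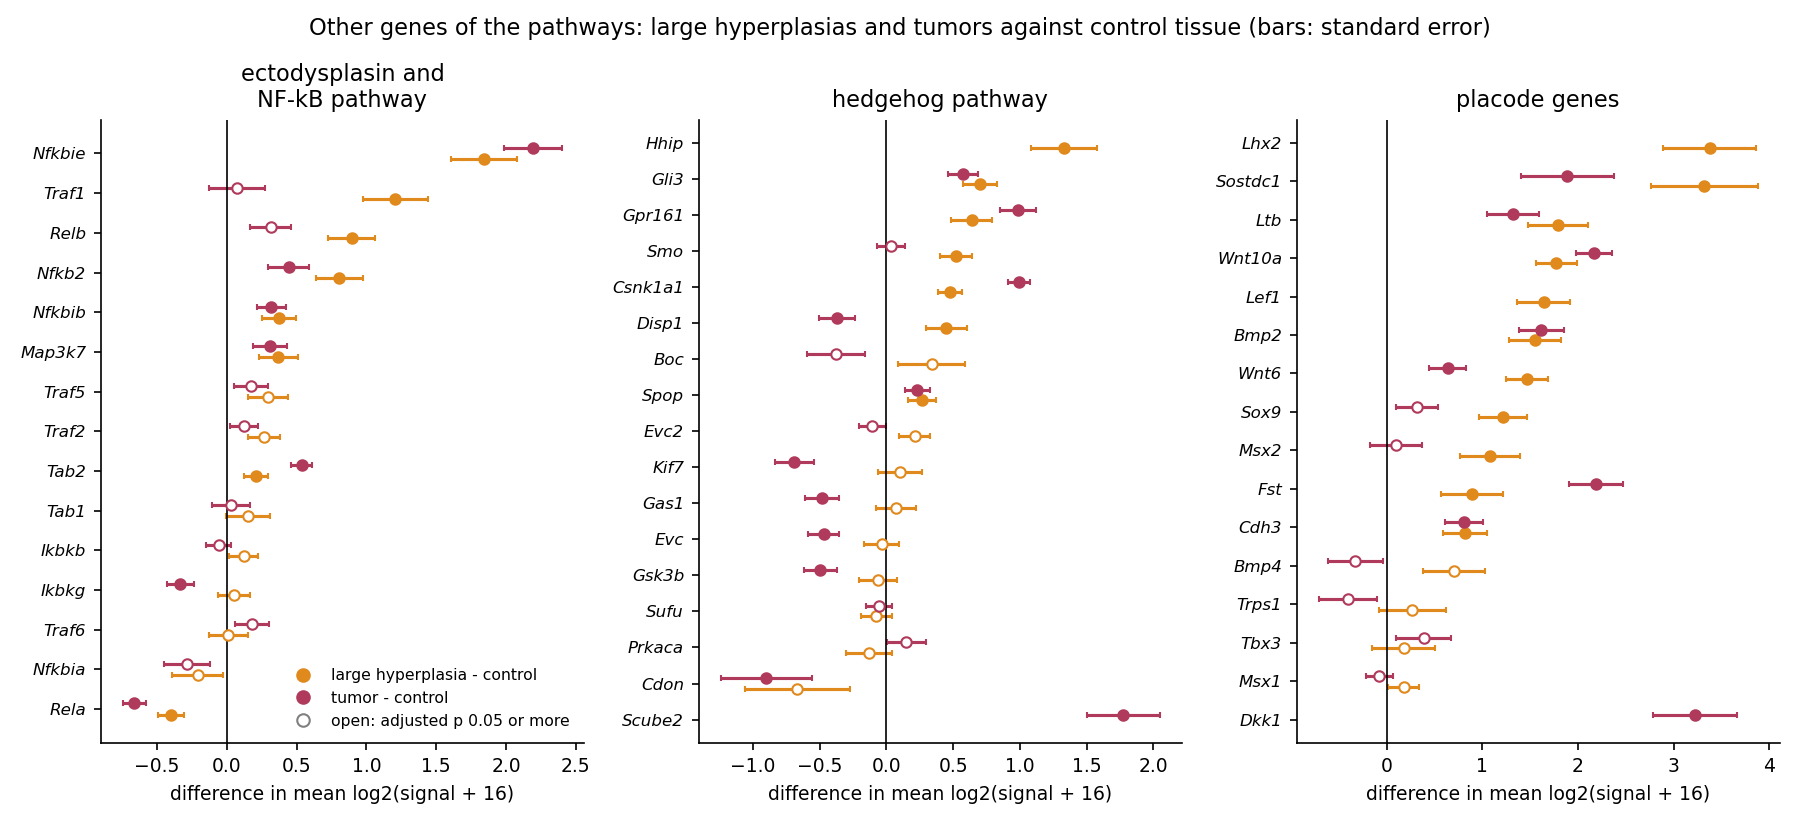
Difference from control tissue in mean log2(signal + 16), with its standard error, in large hyperplasias (orange) and tumors (red) for the tested genes of the 3 lists; filled points have adjusted p under 0.05. *Hhip* (1.33) and *Lhx2* (3.38) lead their lists in large hyperplasias and have no tumor point, as both medians lay under 30.

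In sorted basal cells *Ptch1* was the only one of these genes above 30 in every pool, and none was called between Myc-deficient and control cells. *Shh*, *Gli1* and *Eda* were under 30 on all 6 arrays. *Ptch1* was 146, 151 and 261 in the 3 control pools and 120, 113 and 153 in the 3 Myc-deficient pools, a difference of −0.44 ± 0.37 (adjusted p = 0.86). *Edar* was 51.6, 30.4 and 13.5 in control and 54.8, 25.3 and 57.3 in Myc-deficient pools, a difference of 0.40 ± 0.46 (adjusted p = 0.9). The groups overlapped for both genes. These 2 genes could be tested by their representing probe set. The rest reached 30 in at most 1 pool by theirs, *Eda2r* at 91.0 and *Edaradd* at 98.8 in 1 control pool each, and *Tnfrsf19* at 166 and *Gli2* at 53.3 in 1 Myc-deficient pool each. Over all 19737 probe sets tested, 0 were called by limma (0%), 1259 had an unadjusted p under 0.05, and the methods' t-test called 0 as well. These values are from the fit without pairing. With the replicate number as a block 0 were called and 2225 had an unadjusted p under 0.05, and the adjusted p was 0.61 for *Ptch1* and 0.74 for *Edar*. Hair follicle and sebaceous markers summed to 40.3 to 82.4 in control and 65.9 to 77.3 in Myc-deficient cells. Signals of tissue and sorted cells came from different labelling kits and were not compared.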

How the data were processed

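The deposited table holds MAS5 intensity values, which the authors computed in Affymetrix Expression Console (versions not given in the sources used here); tissue RNA was labelled with a one-cycle kit and sorted-cell RNA amplified with NuGEN kits. Controls (64 probe sets) were left out, and symbols came from the platform annotation (34945 probe sets with 1 symbol, 932 with several, 9160 with none). Each gene was read from 1 probe set, the brightest by mean log2 signal across the fitted arrays. limma 3.58.1 (R 4.3.3; lmFit, eBayes with trend) was fitted to log2(signal + 16) over the 25 tissue arrays and, apart, the 6 sorted-cell arrays, with Benjamini-Hochberg adjustment over probe sets whose higher group median reached 30, and calls at adjusted p under 0.05. The fits were also run on simulated data with independent noise, in which only bright probe sets were changed. Such data cannot show how the fits treat dim genes or shifts shared by arrays. The member genes and gene lists were chosen with earlier results of these data known. Other genes are named where they are sole ligands, receptors or direct targets, or had the 2 largest rises or falls of their list in tumors or large hyperplasias. Same-numbered sorted-cell arrays deviated together (r = 0.221 to 0.259), so their numbers were taken as pairs and the fit with the number as a block is given beside the main, unpaired one; those of tissue (−0.146 to 0.106) were not. Alternatives covered the offset, filter, normalization, test, probe set, samples and replicate block. They included the methods' fold rule for arrays, run as a ratio of medians over 2, and the t-test of their statistics section. No scan date or batch was given, arrays carry no read depth, and their number limits the precision.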

Additional observations from a re-analysis of the deposited data

How the results depend on the processing

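The counts of member genes called stayed at 6 to 7 in large hyperplasias, 6 to 7 in small hyperplasias and 5 to 9 for tumors against large hyperplasias under every alternative run, leaving out each array included. Of 930 recomputed differences of the member genes, 879 kept their direction and side of the threshold, 32 lost their call, 14 gained one and 5 turned. With the replicate number as a block in tissue, where the numbers are no pairs, the member count was 5 in place of 3 for tumors against control tissue (*Shh* 1.18 and *Ptch1* 1.14 then called), 3 in place of 5 for tumors against small hyperplasias, and 6 in place of 3 for large against small hyperplasias. The last was also 6 with only those groups fitted and with any probe set of a gene counted, 1 with no filter, 0 with no offset, and 1 to 3 with 1 array left out; the cause was not tested. In sorted cells the block changed no call (0 called). The other pathway and placode genes called numbered 12, by a ratio of medians over 2, in place of 26 in tumors, 15 in place of 26 in large hyperplasias, 14 in place of 28 for tumors against large hyperplasias and 2 in place of 0 in Myc-deficient cells, and 8 in place of 14 in small hyperplasias by the methods' t-test. Directions turned only for differences that were not called: *Tnfrsf19* in tumors against small hyperplasias (0.015 with the block, 0.067 by another probe set), *Edar* in large against small hyperplasias (−0.0061 to 0.176 with 1 array left out, the lowest without small hyperplasia 5) and, with tumors 1 to 3 left out together, an alternative chosen after seeing the data, *Ptch1* in tumors against control tissue (−0.17) and *Edaradd* against small hyperplasias (−0.042). Over all probe sets, large against small hyperplasias gave 418 calls by the methods' t-test in place of 2259 and 1246 without small hyperplasia 1, and Myc-deficient against control cells gave 10 without Myc-deficient pool 3 in place of 0. By a ratio of medians over 2, calls numbered 7437 in place of 16652 (tumors against control tissue), 4204 in place of 10977 (large hyperplasias), 2301 in place of 7333 (small hyperplasias), 3484 in place of 12800 (tumors against large hyperplasias), 3941 in place of 12705 (tumors against small hyperplasias), 858 in place of 2259 (large against small) and 3125 in place of 0 (Myc-deficient cells), and by the methods' t-test 3705 in small hyperplasias. Dim signals limit *Edar*, *Eda*, *Eda2r* and the lower groups of *Gli1* and *Edaradd*.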
